A study of Mus musculus with 32 samples.

Results

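Hmgcs1, Idi1, Fdps, Fdft1, Sqle, Lss, Cyp51 and Dhcr7 encode enzymes of cholesterol synthesis, and their messenger RNA was followed in the mouse striatum, the forebrain nucleus hit hardest in Huntington's disease. The 8 genes were picked by symbol along the pathway out of 54532 genes in the count table. RNA-seq was done on 32 mice of 6 months, 8 of each of 4 genotypes, on a C57BL/6J background. The wild-type mice carried neither change (4 males, 4 females). Msh3-/- mice lacked a functional Msh3, the mismatch repair gene, after CRISPR editing with guides to exons 3 and 8 (4 males, 4 females). zQ175 mice carried a long CAG repeat knocked into their own Htt gene, so that every cell that uses Htt can make the expanded protein (4 males, 4 females). zQ175:Msh3-/- mice carried both (5 males, 3 females). Tissue was read in bulk, so that in every result here fewer cells of a type and less RNA per cell cannot be told apart. The design asks what the zQ175 allele does to these genes with and without Msh3, and what the loss of Msh3 does with and without zQ175.

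Cells build cholesterol from acetyl-CoA through mevalonate, the isoprenoid diphosphates, squalene and lanosterol. The brain makes its own, since plasma lipoproteins do not cross the blood-brain barrier; oligodendrocytes need it for myelin, and astrocytes pass it to neurons on ApoE particles. When sterols run low in the endoplasmic reticulum, SCAP escorts the transcription factor SREBP2 to the Golgi, where it is cut free and switches on the genes of the pathway, while INSIG proteins hold the complex back.

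Hmgcs1, which makes HMG-CoA, lies at chr13:119690379-119708260 on the plus strand of GRCm38. Idi1 (chr13:8885501-8892451, plus) encodes the isomerase that turns isopentenyl diphosphate into dimethylallyl diphosphate. Fdps (chr3:89093588-89101959, minus) joins these units to farnesyl diphosphate. Fdft1 (chr14:63145150-63179578, minus) encodes squalene synthase, the first step committed to sterols. Sqle (chr15:59315077-59331192, plus) encodes squalene epoxidase. Lss (chr10:76531588-76557138, plus) encodes lanosterol synthase, which closes the rings. Cyp51 (chr5:4081145-4104746, minus) removes the 14-alpha methyl group of lanosterol, and Dhcr7 (chr7:143823145-143848410, plus) reduces the sterol at its end to cholesterol. All of them passed the filter on low counts. Of the runs of 100 bases in their annotated transcripts, 21.9% in Idi1, 21.4% in Fdps and 18.4% in Fdft1 also occur in another gene, against 8.22% in Hmgcs1, 1.51% or less in Lss, Cyp51 and Dhcr7, and none in Sqle. Exons of Fdft1 overlap those of Ctsb on the other strand by 774 bases, and exons of Fdps those of Gm43738 on the same strand by 1124 bases. How reads were split between such genes is not given in the sources used here, so the values of Idi1, Fdps and Fdft1 are less certain than those of Sqle, Lss, Cyp51 and Dhcr7.

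RefSeq start sites (GRCm38.p6) gave a window of 250 bases before the start for 5 of the 8 genes. The windows are shown because the 8 genes varied together between mice, as described further on. The search was for TCACNCCAC, the core of the classical sterol response element, and for CCAAT, the box bound by NF-Y, each on both strands. The first occurs in 1.05% and the second in 33.9% of 32851 windows of the same length across the genome. Capitals mark the matches, with ATTGG being CCAAT on the other strand, and the bases run 5′ to 3′ along each gene.
Hmgcs1: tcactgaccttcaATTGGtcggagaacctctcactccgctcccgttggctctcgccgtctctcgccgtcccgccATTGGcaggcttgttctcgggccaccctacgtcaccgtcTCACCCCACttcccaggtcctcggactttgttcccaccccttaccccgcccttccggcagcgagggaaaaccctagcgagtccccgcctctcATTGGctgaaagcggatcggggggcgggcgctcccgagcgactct
Idi1: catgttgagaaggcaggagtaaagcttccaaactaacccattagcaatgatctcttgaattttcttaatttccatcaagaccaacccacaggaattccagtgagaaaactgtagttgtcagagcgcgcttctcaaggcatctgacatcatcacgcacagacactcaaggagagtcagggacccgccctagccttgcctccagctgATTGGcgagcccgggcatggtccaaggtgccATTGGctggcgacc
Lss: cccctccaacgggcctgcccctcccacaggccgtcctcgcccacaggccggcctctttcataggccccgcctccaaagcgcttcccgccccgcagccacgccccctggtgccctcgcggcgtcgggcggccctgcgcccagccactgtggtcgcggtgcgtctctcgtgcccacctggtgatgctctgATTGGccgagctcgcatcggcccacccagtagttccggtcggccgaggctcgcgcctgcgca
Cyp51: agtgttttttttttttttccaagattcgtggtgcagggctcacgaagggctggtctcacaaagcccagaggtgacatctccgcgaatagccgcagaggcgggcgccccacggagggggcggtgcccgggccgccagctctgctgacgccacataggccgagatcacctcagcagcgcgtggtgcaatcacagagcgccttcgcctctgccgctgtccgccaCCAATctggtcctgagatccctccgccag
The Hmgcs1 window (chr13:119690101-119690350) was the one with the sterol motif, 137 bases before the start, and it held 3 CCAAT boxes, at 45, 176 and 237 bases. Idi1 (chr13:8885356-8885605) held 2 CCAAT boxes, at 14 and 45 bases, Lss (chr10:76531355-76531604) 1 at 62 bases and Cyp51 (chr5:4104698-4104947, minus strand) 1 at 29 bases. Of 3 start sites of Dhcr7, 1 had CCAAT boxes, at 49 and 85 bases. No overlap between the motifs was found in these windows. A match describes letters and is not a measured binding site.

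Msh3 itself averaged 24.5 CPM (counts per 1000000 counted reads) in wild-type mice (22.9 to 27.5) and 11.8 in Msh3-/- mice (10.4 to 13.6), with 24.4 (22.8 to 27.4) in zQ175 and 12.9 (11.1 to 14.2) in zQ175:Msh3-/- mice, so the labels and the counts go together in every mouse. Total counts per mouse ran from 12359347 to 25030335. No 2 mice of a group agreed within sampling noise over 112 pairs compared, the closest having a chi-square of 4.26 per degree of freedom. Each marker of astrocytes, oligodendrocytes, their precursors (OPC), microglia, endothelium and neurons was above 0 in some of the mice. The 8 markers of spiny neurons, the main striatal cell, summed to a median of 7454 CPM in wild-type mice. The 6 markers of cortical neurons summed to 198 CPM.

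Expressed per transcript length, as TPM (transcripts per 1000000 transcripts), Hmgcs1 was the most abundant of the 8 in wild-type striatum at 110.6 ± 8.68 TPM (SD, n = 8). Fdps followed at 62.1 ± 6.85 TPM and Fdft1 at 42.6 ± 3.30 TPM, and the ranges of these 3 over mice did not touch each other or the next gene. Below them the neighbours overlapped. Idi1 stood at 29.2 ± 2.51 TPM, Sqle at 26.6 ± 3.29, Cyp51 at 25.6 ± 2.49, Dhcr7 at 20.5 ± 2.57 and Lss at 14.9 ± 1.57 TPM. Within a mouse, Sqle exceeded Cyp51 in 5 of 8, and the other neighbours kept their order in all 8. The top 3 and bottom 2 places were the same in the mean levels of all 4 genotypes. Idi1, in the fourth place in wild-type mice, was in the fifth in Msh3-/- and zQ175:Msh3-/- mice and in the sixth in zQ175 mice, with Sqle in the fourth place in all 3.

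In zQ175 against wild-type striatum, 2 of the 8 enzymes changed, in opposite directions: Sqle rose and Idi1 fell, each by less than 1.2-fold. In the quasi-likelihood test of edgeR, with p-values adjusted over 16610 genes by Benjamini and Hochberg (adjusted p under 0.05), 26.5% of all genes passed in this comparison, so that 2 of 8 is a share near the background. With a fold of at least 1.2 required as well, 11.6% of all genes and none of the 8 enzymes passed.

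Idi1 ran from 33.9 to 41.5 CPM in wild-type mice with a median of 37.2 CPM, and from 27.5 to 36.0 CPM in zQ175 mice with a median of 33.6 CPM. All 8 zQ175 mice lay below the wild-type median and 5 of them below the lowest wild-type mouse, with the ranges still overlapping. The log2 fold change was -0.20 ± 0.07 (SE; edgeR adjusted p = 0.0257), and an exact two-sided permutation test on log2 CPM gave p = 0.00451, the smallest that 12870 arrangements allow being 0.000155.

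Sqle ran from 28.0 to 38.1 CPM in wild-type mice with a median of 30.6 CPM, and from 32.4 to 40.8 CPM in zQ175 mice with a median of 36.1 CPM. All 8 zQ175 mice lay above the wild-type median, and 2 of them above the highest wild-type mouse. The log2 fold change was 0.20 ± 0.07 (edgeR adjusted p = 0.0231; exact permutation p = 0.0149).

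Scaled to total counts without TMM, the split of calls among the 8 went from 1 higher and 1 lower to 4 higher (Fdps, Sqle, Lss and Dhcr7) and 0 lower, Idi1 having -0.13 (edgeR adjusted p = 0.128). The share of all genes called at that scaling is not given here. Both calls were lost without some single mice, Idi1 keeping its call in 28 and Sqle in 29 of 32 fits that each left out 1 mouse. Idi1 lost its call without wild-type M1 (adjusted p = 0.0510), M3 (0.0569) or F3 (0.0558), or without zQ175 M4 (0.0676), and Sqle without zQ175 M1 (0.0545), zQ175 M2 (0.0589) or wild-type F2 (0.0590) in the same edgeR test. On TPM values, Idi1 missed the threshold (limma on log2(TPM + 0.1), adjusted p = 0.154) while Fdps and Dhcr7 passed it (0.0445 and 0.0296).

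The other 6 did not pass, and their intervals bound what could have been missed. Hmgcs1 had medians of 151.8 CPM in wild-type and 150.5 CPM in zQ175 mice, a log2 fold change of -0.06 with a 95% interval of -0.18 to 0.05. Fdft1, with medians of 56.2 and 55.3 CPM, had -0.03 (-0.13 to 0.07), and Cyp51, with 42.7 and 44.7 CPM, had 0.02 (-0.08 to 0.13). For Fdps the medians were 33.7 and 36.7 CPM and the log2 fold change 0.10 (-0.01 to 0.22). Lss went from 33.5 to 36.3 CPM with 0.09 (-0.02 to 0.19), and Dhcr7 from 22.4 to 23.7 CPM with 0.11 (0.00 to 0.22; adjusted p = 0.127). The median log2 fold change of the 8 was 0.05, beside 0.01 over all genes tested.

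**Figure D1:**
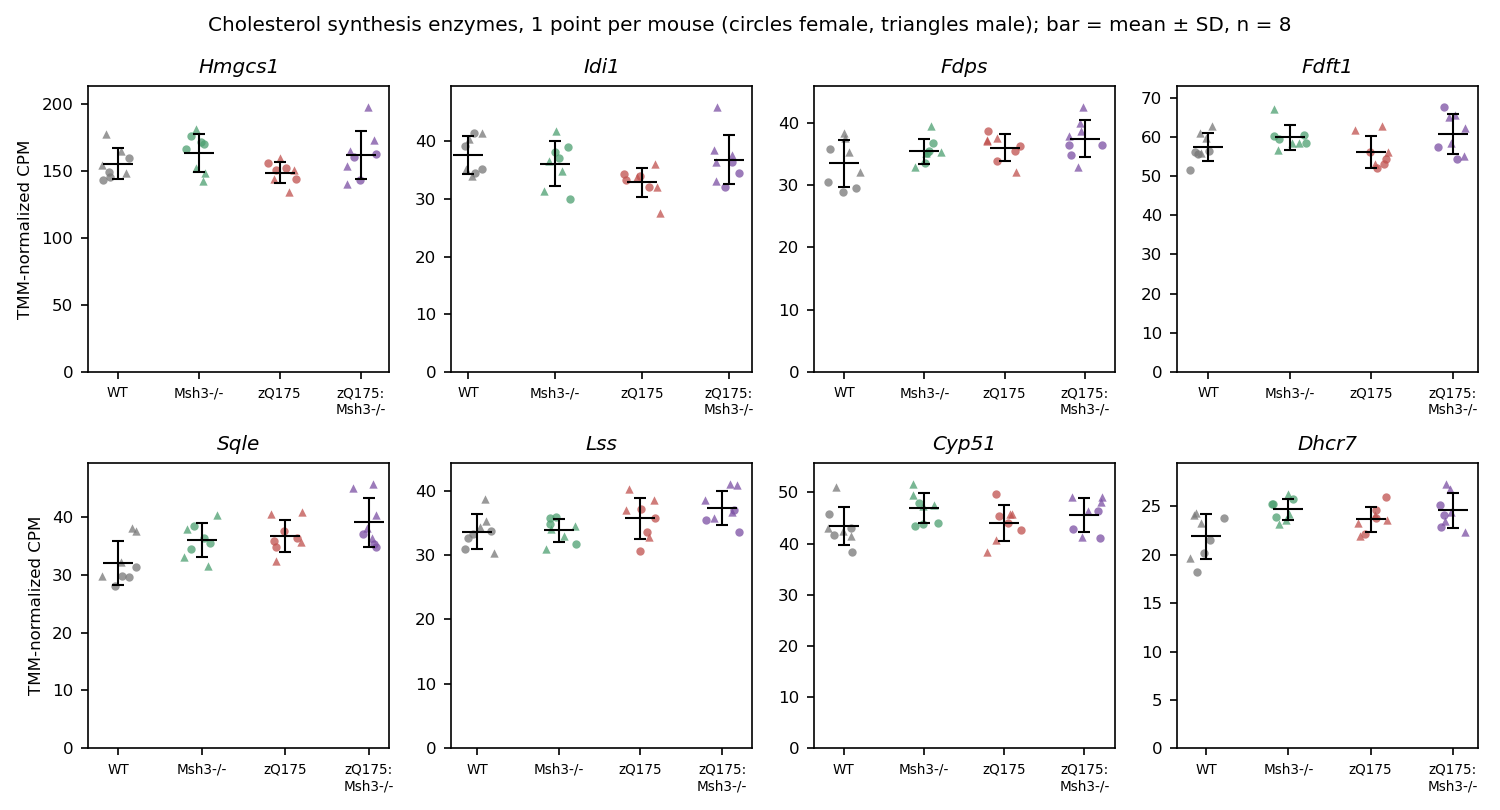
CPM (vertical axis, from 0, scaled by TMM) of each enzyme in each mouse for the 4 genotypes, circles for females and triangles for males, with the mean and SD of 8 mice as bars. Idi1 is lowest in zQ175 mice (median 33.6 CPM against 37.2 in wild-type mice), Sqle has medians from 30.6 CPM in wild-type to 37.6 in zQ175:Msh3-/- mice, and the ranges of the groups overlap for each of the 8 genes.

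On the Msh3-/- background, zQ175 raised 1 of the 8, Lss, in a comparison where 24.1% of all genes passed. Lss ran from 31.0 to 35.9 CPM in Msh3-/- mice (median 34.3) and from 33.6 to 41.1 CPM in zQ175:Msh3-/- mice (median 36.9). In 5 of the 8 zQ175:Msh3-/- mice it was above the highest Msh3-/- mouse. The log2 fold change was 0.14 ± 0.05 (edgeR adjusted p = 0.0443; exact permutation p = 0.00761). The edgeR adjusted p was 0.0575 with sex in the model, and the call was lost, with an adjusted p of up to 0.101, without any 1 of 10 mice (Msh3-/- M1, M2, M3, M4 and F1, zQ175:Msh3-/- M1, M2, M3, M4 and F2).

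The genes called on the wild-type background did not pass here. Sqle had medians of 36.0 CPM in Msh3-/- and 37.6 CPM in zQ175:Msh3-/- mice and a log2 fold change of 0.12 (-0.01 to 0.26; adjusted p = 0.182). Idi1 had medians of 36.8 and 36.4 CPM and a log2 fold change of 0.03 (-0.11 to 0.16). The remaining 5 lay between -0.04 for Cyp51 and 0.08 for Fdps. The difference between the zQ175 effects on the 2 backgrounds (the interaction) was 0.22 ± 0.09 on the log2 scale for Idi1, with an unadjusted p of 0.0239 and an edgeR adjusted p of 0.999. No gene of the 16610 passed for the interaction (0.0%), and 4.44% had an unadjusted p under 0.05, of the 8 enzymes 1. A different response of Idi1 on the 2 backgrounds is therefore not shown.

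Averaged over both Msh3 genotypes, with 16 mice a side, Sqle and Lss rose with zQ175, at a background of 39.6% of genes called. Sqle had a log2 fold change of 0.16 ± 0.05 (edgeR adjusted p = 0.00576) and Lss 0.11 ± 0.04 (0.0129). These 2 calls were kept in each of 32 fits that left out 1 mouse. Fdps had 0.09 ± 0.04 (adjusted p = 0.0577) and Idi1 -0.09 ± 0.05 (0.156), while Fdft1 was at -0.0032 and Cyp51 at -0.01. With the cortical neuron markers as a covariate, described further on, Hmgcs1 (-0.10 ± 0.03, adjusted p = 0.00475) and Idi1 (-0.13 ± 0.05, adjusted p = 0.0192) were also called, as lower, by edgeR.

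Set against wild-type mice, the zQ175:Msh3-/- mice had 4 of the 8 enzymes higher and none lower, beside 26.9% of all genes called. This comparison shares its mice with the others and adds both alleles. Sqle ran from 34.8 to 45.7 CPM in zQ175:Msh3-/- mice (median 37.6), against the wild-type range of 28.0 to 38.1 CPM, with 4 mice above it. Its log2 fold change of 0.29 ± 0.07 (edgeR adjusted p = 0.00111; exact permutation p = 0.00373) was the single one of the 8 past 1.2-fold. Fdps, from 32.9 to 42.5 CPM (median 37.2), had 0.16 ± 0.06 (0.0283). Lss had 0.15 ± 0.05 (0.0285), all 8 mice being above the wild-type median. Dhcr7, from 22.3 to 27.3 CPM (median 24.3), had 0.17 ± 0.05 (0.0171). The Sqle call was kept without any 1 of the 32 mice, while without wild-type F2 it was the only call left. On total counts Fdft1 (0.15 ± 0.05, edgeR adjusted p = 0.0137) and Cyp51 (0.14 ± 0.05, 0.0422) were called higher as well, the share of all genes called there not being given here. Fdps lost its call with the replicate numbers as a block (0.0547).

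**Figure D2:**
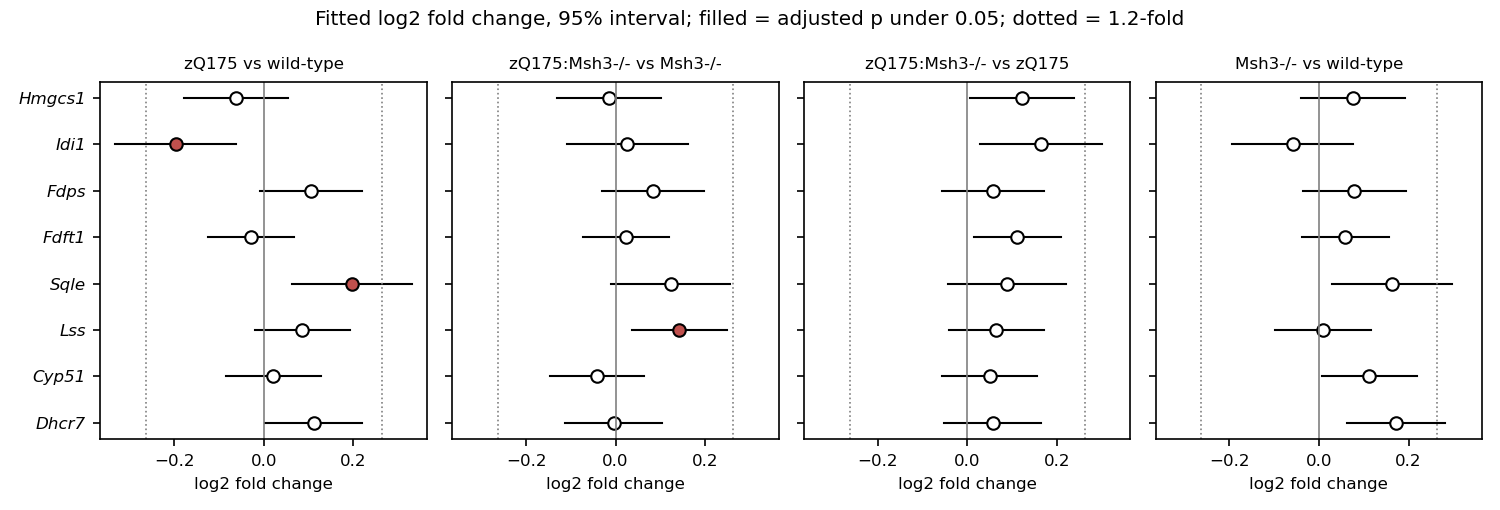
Fitted log2 fold change (horizontal axis, with 95% interval) of the 8 enzymes in 4 comparisons, filled points having an adjusted p under 0.05 and dotted lines marking 1.2-fold. Filled points are Idi1 and Sqle in zQ175 against wild-type and Lss in zQ175:Msh3-/- against Msh3-/-; with Msh3 lost, all 8 points lie right of 0 in zQ175 mice and 7 in mice without zQ175, none past the threshold.

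Loss of Msh3 moved none of the 8 past the threshold, with or without zQ175. In each of these comparisons 1 gene of 16610 passed (0.00602%), Msh3 itself, and DESeq2 likewise called 0 of the 8. In zQ175:Msh3-/- against zQ175 mice all 8 log2 fold changes were above 0, from 0.05 for Cyp51 to 0.16 for Idi1, with a median of 0.08. For 3 of them the unadjusted p in edgeR's test was under 0.05, where 3.70% of all genes had one. These were Idi1 (0.16 ± 0.07, unadjusted 0.0193), Fdft1 (0.11 ± 0.05, unadjusted 0.0238) and Hmgcs1 (0.12 ± 0.06, unadjusted 0.0397), each with an edgeR adjusted p of 0.999. Idi1 reached 46.0 CPM in zQ175:Msh3-/- mice, with 5 of 8 above the highest zQ175 mouse at 36.0 CPM. All 6 markers of cortical neurons, described further on, were also above 0 in this comparison, with a median of 0.305 and 0 called. With the cortical sum as a covariate, 0 of the 8 enzymes were called in this comparison. The part of this cortical signal in the values of the enzymes was not tested beyond that fit.

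In Msh3-/- against wild-type mice, 7 of the 8 were above 0, Idi1 being below at -0.06. Dhcr7 ran from 23.2 to 26.3 CPM in Msh3-/- mice (median 24.7) against 18.3 to 24.3 CPM in wild-type mice (median 22.4), a log2 fold change of 0.17 ± 0.05 with an unadjusted p of 0.00282 and an adjusted p of 0.812 by edgeR. Sqle had 0.16 ± 0.07 (unadjusted p = 0.0186) and Cyp51 0.11 ± 0.05 (0.0376), both with an adjusted p of 0.926 by edgeR. These 3 of 8 stand beside 5.09% of all genes with an unadjusted p under 0.05. The 8 genes vary together from mouse to mouse, so their directions in a comparison are not 8 separate observations. The 6 cortical neuron markers were all above 0 here too, with a median of 0.291 and 0 called. With the cortical sum as a covariate, 0 of the 8 enzymes were called here. The part of the cortical markers in the values of the enzymes was not tested beyond that fit.

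Between the sexes none of the 8 passed, at a background of 0.313% of genes called. All 8 were on average higher in the 17 males than in the 15 females, by 0.01 for Hmgcs1 to 0.11 for Sqle on the log2 scale. Sqle averaged 37.4 ± 4.57 CPM in males and 34.4 ± 3.17 CPM in females (SD). Its unadjusted p was 0.0191, with 0.0310 for Fdft1 and 0.0449 for Fdps by edgeR, while 9.31% of all genes had one under 0.05. The smallest adjusted p of the 8 was 0.417.

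Beyond the 8, the pathway holds 13 more enzymes that were measured, and 4 of them passed in zQ175 against wild-type mice (30.8%, beside 26.5% of all genes). Acat2, cytosolic acetoacetyl-CoA thiolase at the head of the pathway, fell by 0.42 ± 0.07 on the log2 scale (edgeR adjusted p = 2.8e-05). It ran from 38.4 to 65.0 CPM in wild-type mice (median 41.8) and from 31.6 to 34.1 CPM in zQ175 mice (median 33.2), with no overlap. Msmo1, a C4-methyl sterol oxidase, fell by 0.18 ± 0.06 (0.0142). Mvk, mevalonate kinase, rose by 0.20 ± 0.05 (0.0048), from a median of 12.8 to 15.5 CPM, and Pmvk, the next kinase, rose by 0.24 ± 0.06 (0.0013). The median of the 13 was 0.03.

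On the Msh3-/- background Acat2 (-0.26 ± 0.07), Msmo1 (-0.21 ± 0.06) and Mvk (0.25 ± 0.05) passed again, and Hsd17b7, the 3-ketosteroid reductase of the pathway, rose by 0.16 ± 0.05 (edgeR adjusted p = 0.0296). Both early and late steps thus held genes that rose and genes that fell. Averaged over Msh3 genotypes, 6 of the 13 passed, 4 higher and 2 lower (46.2%, beside 39.6% of all genes).

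**Figure D3:**
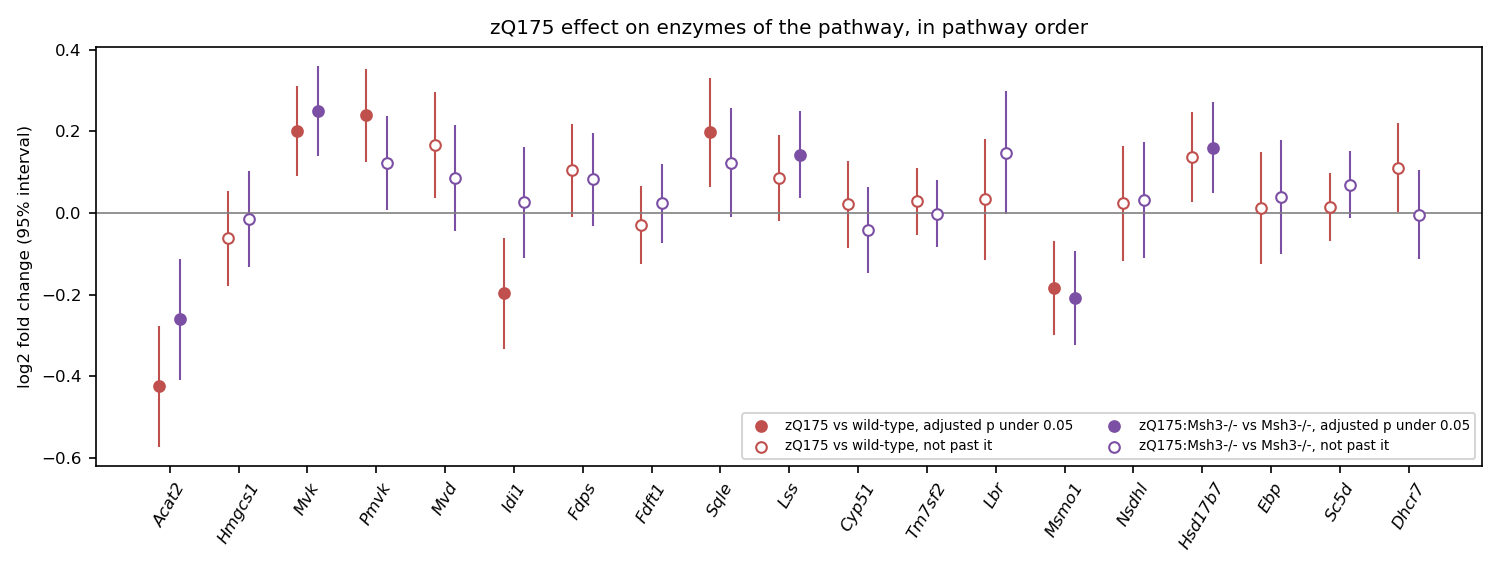
Log2 fold change (vertical axis, with 95% interval) for zQ175 on the wild-type background (red) and on the Msh3-/- background (purple) for 19 of the 21 enzymes measured, in pathway order, filled where the adjusted p is under 0.05. Acat2 and Msmo1 lie below 0 and Mvk above 0 on both backgrounds, while the intervals of Cyp51, Tm7sf2, Nsdhl, Ebp and Sc5d include 0 on both.

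The regulators did not move as 1 group. Of 7 genes of the SREBP machinery, 3 passed in zQ175 against wild-type mice (42.9%, beside 26.5% of all genes). Srebf2, which encodes SREBP2, fell by 0.15 ± 0.03 (edgeR adjusted p = 0.0014), from a median of 285.4 CPM (274.6 to 299.9) to 259.6 CPM (241.8 to 272.4) with no overlap, and by 0.18 ± 0.03 (0.00021) on the Msh3-/- background. Mbtps1, the site-1 protease that makes the first cut in SREBP2, fell by 0.37 ± 0.04 (9.5e-09) and by 0.28 ± 0.04 (3.9e-06). Srebf1, whose products act mostly on fatty acid genes, rose by 0.17 ± 0.06 (0.0394) on the wild-type background. Mbtps2, the site-2 protease, rose by 0.18 ± 0.04 (0.0027) on the Msh3-/- background. These are changes in messenger RNA, and the cleaved protein was not measured here.

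From mouse to mouse within a genotype, the 8 enzymes rose and fell together. With log2 CPM centred on each genotype's mean, all 28 pairs had a positive Pearson r over 32 mice, with a median of 0.476 (0.102 to 0.732) and a median Spearman rho of 0.458. The median r of each of the 8 with all other genes was close to 0, -0.02 for Hmgcs1 and 0.01 for Lss at the ends. By a permutation of mice within genotypes with 100000 resamples, 19 of 28 pairs had an adjusted p under 0.05, for r as for rho. The share of other gene pairs that pass this test was not computed, so the count has no background beside it. A median near 0 can hold high values of both signs. Over 14924 other genes, r with the mean of the 8 enzymes ran from -0.786 to 0.859. Fdft1 and Sqle had the highest r at 0.732 (permutation p = 1e-05, the smallest these resamples can give), then Hmgcs1 and Idi1 at 0.715. Without the 2 mice farthest from the median of the first gene, the median over pairs was 0.471 and the lowest value -0.08, for Lss and Cyp51.

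Lss had the lowest mean r over all mice. Its mean r with the other 7 was 0.257, against 0.592 for Sqle and 0.585 for Hmgcs1, and none of its 7 pairs passed by r; by rho its pair with Dhcr7 did (rho = 0.421, permutation adjusted p = 0.0374). By genotype, its mean r was 0.535 in wild-type mice, above that of Idi1 (0.489), and 0.344 in Msh3-/- mice, above those of Fdps, Dhcr7 and Cyp51. It was the lowest of the 8 in zQ175 mice, at -0.153 with 5 of 7 values below 0, and in zQ175:Msh3-/- mice, at 0.331. With TMM scaling, the zQ175 call of Lss was made on the Msh3-/- background (log2 fold change 0.14) and not on the wild-type background (0.09). On total counts Lss was called on the wild-type background too (edgeR adjusted p = 0.0331). The difference between backgrounds did not pass (edgeR adjusted p = 0.999).

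Within single genotypes, each with 8 mice, the median r over pairs was 0.658 in wild-type and 0.653 in zQ175:Msh3-/- mice, where all 28 pairs were positive. It was 0.415 in Msh3-/- mice (24 positive) and 0.315 in zQ175 mice (20 positive). It was 0.663 in males (27 positive) and 0.290 in females (23 positive). Whether these medians differ between genotypes or sexes was not tested.

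**Figure D4:**
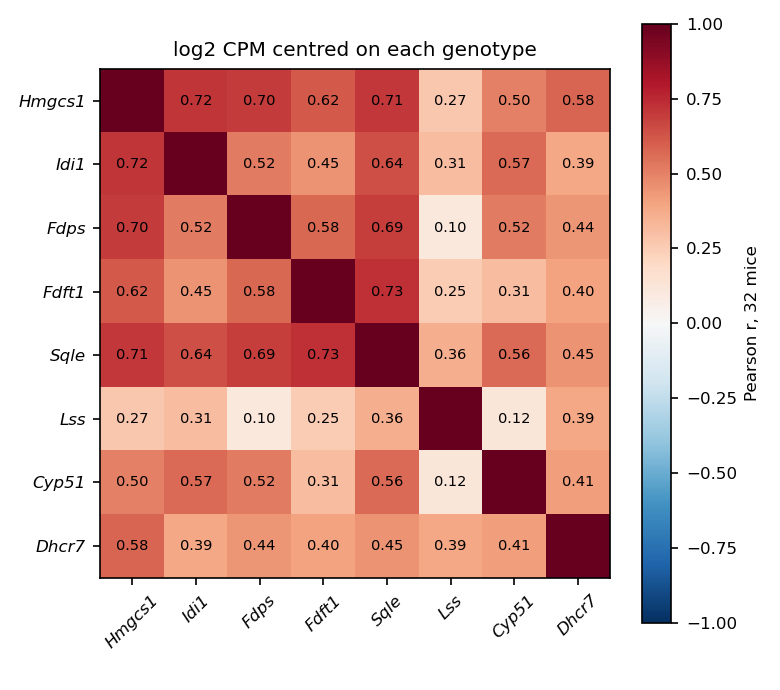
Pearson r for each pair of the 8 enzymes over 32 mice, from log2 CPM centred on each genotype, on a scale from -1 to 1. All values are above 0, the highest being 0.73 for Fdft1 and Sqle, and the Lss row and column are the palest, down to 0.10 with Fdps.

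Among the genes outside the 8 that followed them most closely was Stard4, a cytosolic sterol carrier (r = 0.812 with the mean of the 8, each scaled to SD 1). Insig1, which holds SREBP2 back and is itself an SREBP target, had 0.761. Grk3, a receptor kinase (0.794), Fam81a (0.777), Itga7, an integrin subunit (0.771), Klf6, a transcription factor (0.764), Cckbr, a cholecystokinin receptor (0.756), Lmna, which encodes lamin A/C (0.755), and Stmn1, which encodes the microtubule regulator stathmin (0.747), were also among the 10 highest of 14924 genes with a mean of at least 1 CPM. This is a description over 32 mice, centred on genotype. How the mice were divided over dissection and library preparation is not given in the sources used here, and their part in these values was not tested. Of the 13 other enzymes 11 had a positive r, with a median of 0.539 beside -0.01 over all genes ranked; Sc5d (0.640), Hsd17b7 (0.640) and Mvd (0.614) were high, and Tm7sf2 and Ebp were at -0.07. Srebf2 had 0.188, and Insig2, the other INSIG, had -0.462.

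The same mice also differed in markers of cortical neurons, a neighbouring tissue. The summed level of the 6 cortical neuron markers ran from 47.8 to 307.4 CPM in wild-type and 50.4 to 460.3 in Msh3-/- mice. It ran from 39.3 to 397.3 in zQ175 and 132.8 to 663.7 CPM in zQ175:Msh3-/- mice. The medians were 198, 216, 270 and 329 CPM, and each of the markers was above 0 in some of the mice. With zQ175 the log2 fold changes of all 6 markers were positive on both backgrounds. They spanned 0.41 to 0.82 on the wild-type background (median 0.614) and 0.42 to 0.84 on the Msh3-/- background (median 0.608). By edgeR 0 of the 6 passed on the wild-type background (0 at an unadjusted p under 0.05), beside 26.5% of all genes. On the Msh3-/- background 0 passed (1 unadjusted), beside 24.1%. For zQ175:Msh3-/- against wild-type mice the 6 spanned 0.59 to 1.10 (median 0.899). Fezf2 was called higher there by edgeR (0.59 ± 0.21, adjusted p = 0.0413). Averaged over Msh3 genotypes, edgeR called Fezf2 (0.44 ± 0.15, adjusted p = 0.0212) and Neurod2 (0.83 ± 0.31, adjusted p = 0.0353) higher with zQ175. Across mice the mean of the 8 enzymes had an r of 0.650 (rho = 0.677) with the log2 of that sum, and of -0.601 with that of the 8 spiny neuron markers. Of these last, 7 fell in zQ175 against wild-type mice, their summed median going from 7454 to 4139 CPM. The r with astrocyte markers was 0.220, with oligodendrocyte markers 0.091, with OPC markers -0.066, with microglia markers 0.015, with endothelial markers 0.148, and with total counts 0.050.

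The mice were split at 0.6 below the genotype mean of the log2 cortical sum, a limit set after the values were seen. The 24 mice above it (175.2 to 663.7 CPM) had an r of 0.653 (rho = 0.532). The 8 mice below it (39.3 to 142.9 CPM) had an r of -0.125 (rho = -0.452). Whether the relation differs between these parts was not tested. By gene, r with the cortical sum was highest for Hmgcs1 at 0.765 and lowest for Lss at 0.03, with the other 6 between 0.415 and 0.548. With the cortical sum removed, the 28 pairs were still all positive, with a median r of 0.368 (0.102 to 0.655), and the r with the 8 was 0.777 for Insig1 and 0.704 for Stard4. Among the other genes named above it went to 0.627 for Grk3, 0.603 for Itga7, 0.572 for Fam81a, 0.572 for Lmna, 0.562 for Klf6, 0.518 for Cckbr and 0.510 for Stmn1.

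With the cortical sum as a covariate in the zQ175 against wild-type comparison, Hmgcs1 was called lower (-0.12 ± 0.04, edgeR adjusted p = 0.0200) and Idi1 and Sqle kept their calls. On the Msh3-/- background Lss missed the threshold (0.14 ± 0.05, adjusted p = 0.0586). For zQ175:Msh3-/- against wild-type mice the Sqle and Lss calls were kept, and those of Fdps (adjusted p = 0.172) and Dhcr7 (0.103) were lost. The share of all genes called in these fits is not given here. This covariate was chosen after the values were seen, and the part of the cortical signal in these levels was not tested beyond these fits.

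**Figure D5:**
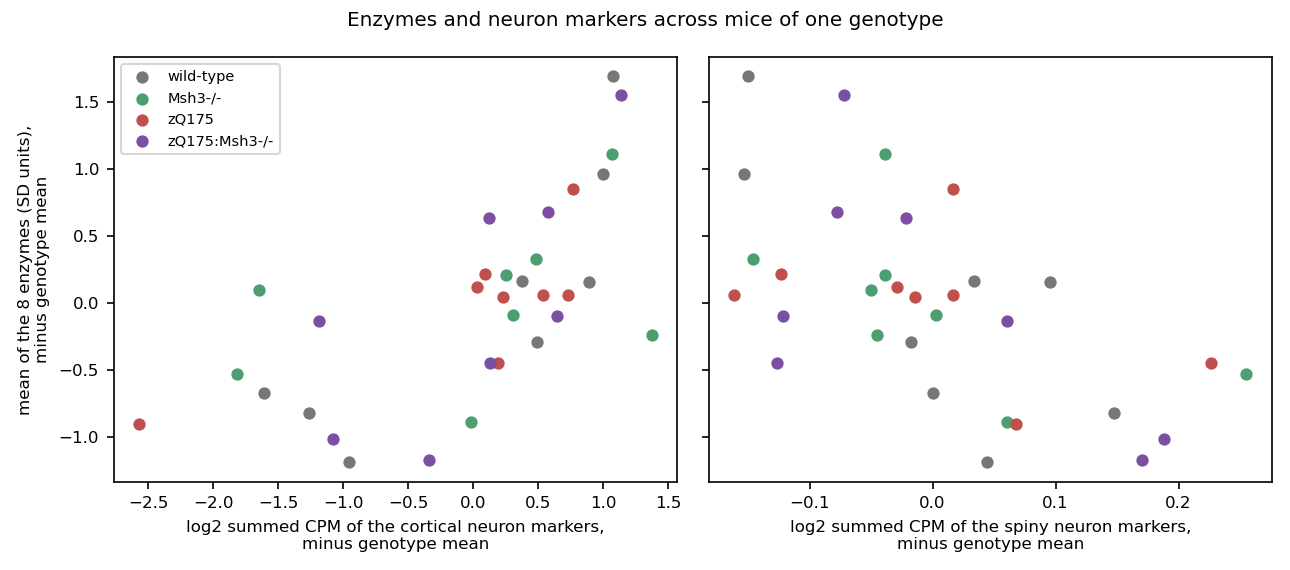
Mean of the 8 enzymes in each of 32 mice (vertical axis, SD units, minus the genotype mean) against the log2 summed CPM of the cortical neuron markers (left) and of the spiny neuron markers (right), each minus its genotype mean. The points climb with the cortical sum (r = 0.650) and fall with the spiny neuron sum (r = -0.601); each colour is a genotype.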

How the data were processed

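RNA was taken from the striatum of 32 mice and polyA libraries were read as paired ends of 150 bases. Per the labels, reads were set against GRCm38.p6; the aligner, counter and strand setting are not given in the sources used here. The authors deposited whole-number counts per Ensembl gene, and a second table named for FPKM whose columns the authors scaled so that each sums to 1000000, treated here as TPM. Symbols came from GENCODE M21. Genes passing edgeR's filterByExpr (16610) were fitted in 1 model of 4 genotypes with TMM scaling and the robust quasi-likelihood test (edgeR 4.0.16); sex was compared with genotype in the model. DESeq2 1.42.0 and limma 3.58.1 were alternatives. The edgeR, DESeq2 and limma fits were tested on simulated counts for zQ175 against wild-type mice. There edgeR recovered 62% of 100 genes changed by 1.2-fold and 83% of 100 changed by 1.5-fold. Among the unchanged genes edgeR made 10 false calls, DESeq2 18 and limma 9. The changed genes were a smaller share of the 16340 fitted than the 26.5% called in the mice. These rates therefore do not give the power for the 8 enzymes. The other steps were not tested on simulated data. CPM are TMM-scaled. Replicate labels were given by sex; pairing was checked from correlated deviations. The 8 genes and all lists were chosen with earlier results of these data known. All 8 were named, with Srebf2, Msh3, up to 6 called genes a list, and genes among the 10 most like the 8; some members of the lists are not reported here; further genes of the lists (Sc5d, Mvd, Tm7sf2, Ebp, Insig2) were named after their values were seen. The promoter search used the 250 bases before each start. Each library is 1 mouse; litters are not given per mouse. Intervals are 95%.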

Additional observations from a re-analysis of the deposited data

Results flagged for a closer look

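Over the 32 sets of 8 mice (8 enzymes in 4 genotypes), 2 held a mouse far from the others by Dixon's ratio, the gap to the nearest mouse over the whole range, at a critical value of 0.526. About 1.6 such sets arise by chance at the 95% level. In zQ175 mice, Idi1 was lowest in male M4 at 27.5 CPM, with the other 7 between 32.1 and 36.0 CPM (ratio 0.563). Without that mouse the zQ175 against wild-type call of Idi1 was lost (edgeR adjusted p = 0.0676). In Msh3-/- mice, Fdft1 was highest in male M3 at 67.2 CPM, with the other 7 between 56.6 and 60.4 CPM (ratio 0.621). In the main edgeR fits with TMM scaling, Fdft1 was called in no comparison, with or without that mouse. On total counts it was called higher in zQ175:Msh3-/- against wild-type mice (edgeR adjusted p = 0.0137).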

How the results depend on the processing

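In zQ175 against wild-type mice, where 2 enzymes passed, 4 passed on total counts without TMM (all higher, Idi1 no longer called), 0 without the count filter, 0 in males, 0 with 1.2-fold required and 0 at an adjusted p under 0.01; leaving out single mice gave 1 to 2. On the Msh3-/- background (1 passed), total counts gave 3, and no filter, sex in the model, females, the cortical covariate, 1.2-fold and 0.01 each gave 0; single mice gave 0 to 1. For zQ175 averaged (2 passed), total counts, log2(TPM + 0.1) and log2(TPM + 1) each gave 4 (Fdps and Dhcr7 added, higher), the cortical covariate 4 (Hmgcs1 and Idi1 added, lower), males 1, females 1, 0.01 gave 1 and 1.2-fold 0; single mice gave 2 to 3. For zQ175:Msh3-/- against wild-type mice (4 passed), total counts gave 6 and either TPM scale 5, males 0, females 2, the cortical covariate 2, 1.2-fold 1 and 0.01 1; single mice gave 1 to 4. The exact test in zQ175 against wild-type mice (2 at an unadjusted p under 0.05) gave 4 on total counts (Fdps, Sqle, Lss and Dhcr7, all higher; Idi1 had p = 0.0505 in the exact test) and 4 on either TPM scale (Idi1 lower, Fdps, Sqle and Dhcr7 higher). For the alternative settings the share of all genes called is not given beside these counts, so they describe the settings and are not results about the enzymes. The median r over pairs was 0.663 in males, 0.290 in females and 0.418 to 0.521 without single mice.

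Of 840 single-gene values under the alternatives, 789 stayed on their side of the threshold, 26 lost a call and 25 gained one; 57 that were called under neither setting changed sign, and none that was called did. Msh3 comparisons, interaction and sex kept 0 calls among the 8 throughout. The replicate numbers were not shown to pair the mice (r of deviations -0.127 to 0.333); a replicate block gave 2, 1, 2 and 3 calls in the 4 comparisons above. Without TMM the median log2 fold change of all genes in zQ175 against wild-type mice was 0.08 and with it 0.01, a shift near the size of the enzymes' changes. The causes were not tested.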

Other observations

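Genes that fell and genes that rose were also found in neighbouring lipid pathways. Of 9 genes of the isoprenoid branch, which uses the same farnesyl diphosphate for dolichol, ubiquinone and protein prenylation, 4 passed in zQ175 against wild-type mice (44.4%, beside 26.5% of all genes). Nus1, a subunit of the enzyme that makes dolichol chains, fell by 0.22 ± 0.04 on the log2 scale (edgeR adjusted p = 1.1e-05) and by 0.24 ± 0.04 on the Msh3-/- background, while Dhdds, its partner subunit, rose by 0.14 ± 0.03 (0.0013) and by 0.13 ± 0.03. Of 9 fatty acid synthesis genes 4 passed (44.4%). Acly, which supplies cytosolic acetyl-CoA, fell by 0.15 ± 0.04 (0.0033), Fads1, a desaturase, fell by 0.15 ± 0.03 (0.00038), and Acaca, acetyl-CoA carboxylase, rose by 0.16 ± 0.04 (0.00067).

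Of 18 tested genes of sterol uptake, transport and turnover, 5 passed in zQ175 against wild-type mice, 3 higher and 2 lower (27.8%, near the 26.5% of all genes). On the Msh3-/- background 4 passed, 1 higher and 3 lower (22.2%, beside 24.1% of all genes). On the wild-type background the sterol exporters Abca1 (0.18 ± 0.06, edgeR adjusted p = 0.0399) and Abcg4 (0.12 ± 0.04, 0.0259) rose, as did Nr1h2, which encodes the oxysterol receptor LXR-beta (0.11 ± 0.04, 0.0171). Cyp46a1, the neuronal enzyme that turns cholesterol into 24-hydroxycholesterol for export, ran from 235.5 to 279.3 CPM in wild-type and from 186.0 to 228.9 CPM in zQ175 mice, with no overlap (-0.35 ± 0.04, edgeR adjusted p = 1.4e-08). Lcat, which esterifies cholesterol on lipoproteins, fell by 0.39 ± 0.08 (0.00051). Apoe fell on the Msh3-/- background (-0.24 ± 0.06, adjusted p = 0.0015) and had -0.14 ± 0.06 (0.0621) on the wild-type background. In zQ175 against wild-type mice 7 of 8 spiny neuron, 4 of 6 endothelial and 5 of 10 astrocyte markers fell, beside 26.5% of all genes called. Of the microglia markers 3 of 8 fell (37.5%), and of the oligodendrocyte markers 2 of 10 (20%), below that share. Of the OPC markers 1 of 6 rose, and 0 of 6 cortical neuron markers were called, though all 6 had positive log2 fold changes (median 0.614). The part of these cell types in the values above was not tested.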
